A study of Mus musculus with 6 samples.

Results

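The Ly6c2/Plac8 barcodes are a set of myeloid cell barcodes in 6 single-cell libraries of mouse skin, chosen by a gate on transcript counts. Transcripts were counted as unique molecular identifiers (UMIs), 1 per captured molecule. A barcode was kept with at least 300 genes and at most 15% mitochondrial UMIs. It entered the set with at least 1 UMI of Ly6c2 or Plac8, at least 5 UMIs of the myeloid genes Lyz2, Fcer1g and Tyrobp together, none of Cd3d, Cd3e, Cd3g, Siglech or Rgs5, and fewer than 10 of S100a8 and S100a9 together. The gate took 215 of 25772 kept barcodes (38206 in the files), of which 195 lay in the OVA-sensitized libraries and 20 in the controls. The reference, called C1q-high barcodes, held at least 5 UMIs of the complement genes C1qa, C1qb and C1qc and none of Ly6c2 or Plac8, and numbered 309 after OVA and 373 in the controls. The gate was proposed with measured values of these libraries known, so the genes of both gates and the markers Ms4a4c, Thbs1 and Ccr2 are described without a test.

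The mice were of the Balb/c strain, and their skin was taken 2 days after a 10-day epicutaneous sensitization and digested with enzymes. There were 3 libraries labelled control, with titles beginning EC-SAL, and 3 labelled OVA-sensitized, with titles beginning EC-OVA (n = 3 per group throughout); the tissue label reads sensitized skin in all 6, and the treatment label is what separates the groups. The labels name CD4 as the cell type, whereas the libraries held keratinocytes, fibroblasts, endothelial cells and leukocytes by their marker genes. The sources used here do not give age, sex, dose or whether each library came from its own mouse. The p-values therefore reflect variation among these libraries alone, which could be technical.

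Ly6C-positive monocytes circulate in blood, enter inflamed skin with the help of the chemokine receptor Ccr2, and can there take on features of macrophages or of antigen-presenting dendritic cells. Ly6c2 encodes their glycolipid-anchored surface protein Ly6C, and Plac8 a small cysteine-rich protein also found in NK cells, plasmacytoid dendritic cells and some stromal cells. Complement C1q is made by resident tissue macrophages. Interferons switch on many genes through the interferon-stimulated response element in their promoters, and the transcription factor PU.1 drives the myeloid programme.

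Ly6c2 (ENSMUSG00000022584, chromosome 15, 75108158 to 75111970, minus strand) and Plac8 (ENSMUSG00000029322, chromosome 5, 100553725 to 100572245, minus strand) define the set, and their promoters are shown for that reason. Coordinates are GRCm38 (mm10), counted from 1. The stretches are the 150 bases before the first RefSeq start of each gene (GRCm38.p6), read along the gene's strand, with a match to the PU.1-type motif GAGGAAGT, searched on both strands, in capitals.
Ly6c2 (chr15:75111972-75112121, minus strand): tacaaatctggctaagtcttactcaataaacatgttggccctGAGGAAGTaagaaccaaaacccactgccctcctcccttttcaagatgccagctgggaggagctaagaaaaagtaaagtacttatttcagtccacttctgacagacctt
Plac8 (chr5:100572206-100572355, minus strand): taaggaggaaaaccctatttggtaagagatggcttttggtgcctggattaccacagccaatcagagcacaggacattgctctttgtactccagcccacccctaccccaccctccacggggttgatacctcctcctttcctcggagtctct
The motif began 108 bases before the start of Ly6c2 and did not occur in the Plac8 stretch. It was held by 3.2% of all 32851 RefSeq promoter windows of 300 bases, and a match is a description of the letters only.

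The Ly6c2/Plac8 barcodes numbered 8, 6 and 6 in control libraries 1 to 3 and 67, 65 and 63 in OVA-sensitized libraries 1 to 3. They made up 0.15, 0.13 and 0.138% of kept barcodes in the controls and 1.74, 1.59 and 1.77% after OVA (0.139 ± 0.00998% and 1.70 ± 0.0984%, mean ± SD). In each OVA-sensitized library the share lay above that of each control library, and the exact Clopper-Pearson 95% intervals of the libraries, which cover counting error only, did not meet (0.0478 to 0.3% over the controls, 1.23 to 2.26% after OVA). C1q-high barcodes made up 2.57, 2.6 and 2.67% in the controls and 2.47, 2.67 and 2.95% after OVA, ranges that overlap. For every 100 C1q-high barcodes there were 5.84, 5 and 5.17 Ly6c2/Plac8 barcodes in the controls and 70.5, 59.6 and 60 after OVA. Since the set was proposed with this spread known, no test is given. A share of kept barcodes also reflects digestion and filtering, whose part was not tested. With Ly6c2 required, a gate chosen after seeing the data, it was 0.0836 ± 0.0161% and 0.923 ± 0.0554%.

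**Figure D1:**
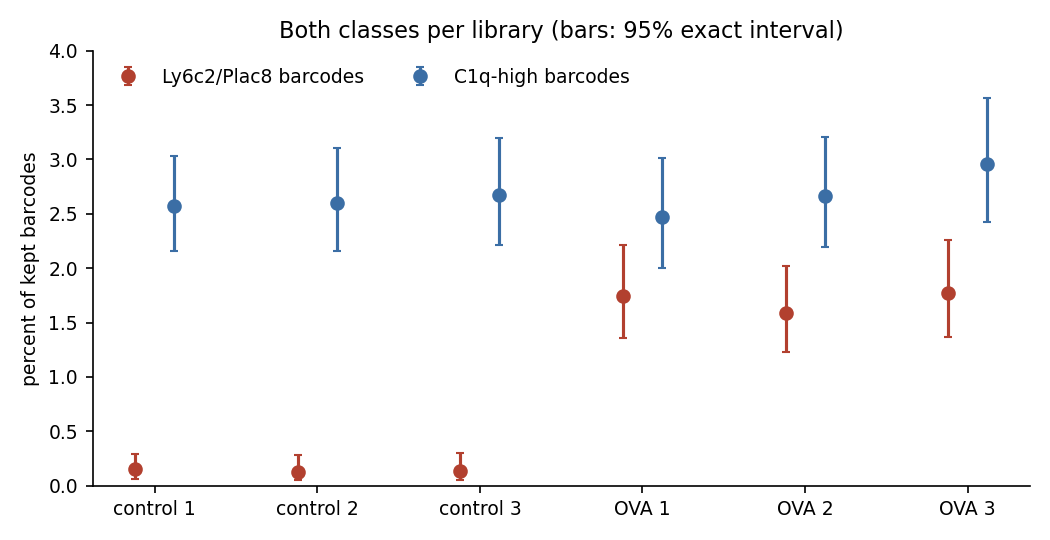
Ly6c2/Plac8 barcodes (red) and C1q-high barcodes (blue) as a percent of kept barcodes in each library, with exact 95% intervals of counting error. The red points lie at most at 0.15% in the controls and at least at 1.59% after OVA, while the blue points lie between 2.47 and 2.95%.

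Depth limits what the controls can show. The Ly6c2/Plac8 barcodes of control libraries 1 to 3 summed to 28006, 24490 and 21254 UMIs and those of the OVA-sensitized libraries to 272290, 218519 and 255876. Their median depth was 2192, 2692 and 3082 UMIs per barcode in the control libraries and 2951, 2410 and 2437 after OVA. In C1q-high barcodes it was 1734, 1479.5 and 1738 in the control libraries and 1907, 1650 and 1584 after OVA. The libraries held 25350813 to 33650630 UMIs in all. Of 37360 barcode sequences, 836 occurred in more than 1 library (380 among kept barcodes). No sequence was a Ly6c2/Plac8 barcode in more than 1 library, and 4 such barcodes had their sequence kept in another library.

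The 2 gate genes overlapped in part. After OVA, 76 barcodes held both Ly6c2 and Plac8, 30 held Ly6c2 alone and 89 held Plac8 alone. A single UMI of either gene carried 60 of the 195 barcodes into the set, 26 had 2 and 109 at least 3. Just inside the myeloid threshold, with a sum of 5, lay 6 barcodes, and 6 more with a sum of 4 lay just outside; 2 had 5 to 9 S100a8 and S100a9 UMIs and 10 were left out with 10 or more. The set held 554 of 819 Ly6c2 UMIs in kept barcodes after OVA (67.6%) but 793 of 3185 Plac8 UMIs (24.9%), since Plac8 was also counted elsewhere. Among barcodes gated on fibroblast genes Plac8 was seen in 4.02% after OVA and 0.435% in the controls, and Ly6c2 in 0.136% and 0.0966%. Keratinocyte-gated barcodes gave 0.0717% for Ly6c2 and 0.537% for Plac8 after OVA. Ly6c1, a close paralog of Ly6c2 whose shared reads were not resolved, was seen in 76.7% of endothelial-gated barcodes after OVA and 78.2% in the controls, where Ly6c2 was seen in 0.219% and 1.19%.

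The name monocyte held for the set only in part. Ly6c2 and Plac8 are set by the gate and bear on no name. The other markers, Ms4a4c, Thbs1 and Ccr2, were chosen with values of these libraries known. They describe the set and are no independent check of its name. Ms4a4c, a membrane protein of monocytes, was seen in 78 of 195 barcodes after OVA, Ccr2 in 82 and the matrix protein gene Thbs1 in 58, and 135 held at least 1 of these 3. Of the 309 C1q-high barcodes 65 did. Thbs1 was also common in other cells: it was seen in 59% of keratinocyte-gated and 41.8% of fibroblast-gated barcodes after OVA, against 29.7% of the set, which held 1.13% of its UMIs. In counts per 1000000 UMIs (CPM) in libraries 1 to 3, Ms4a4c stood at 297, 467 and 363 CPM against 39.1, 28.5 and 97.9 CPM in C1q-high barcodes, and Ccr2 at 246, 261 and 179.8 CPM against 56.5, 64.1 and 116 CPM. Csf1r, the receptor for the macrophage growth factor, was seen in 83 barcodes. Other classical monocyte genes varied. Chil3 gave 25 UMIs and Vcan 12 in the whole set after OVA, whereas Ifitm3 gave 656 and Napsa 327 in its 141 barcodes without C1q alone. Cx3cr1, a gene of non-classical monocytes, gave 15 UMIs in the whole set after OVA. Genes by which another cell type is known were present in 72 barcodes, so the set is called here by its rule.

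These 72 barcodes differed in kind and in depth. A UMI of a basophil gene (Mcpt8, Ms4a2, Cpa3, Hdc or Gata2) was found in 20 of 195 barcodes (10.3%), with a median of 1737 UMIs per barcode and 8.33% of the set's UMIs. Another 10 (5.13%) held an NK or T cell gene, such as Nkg7 or Trbc2, and 37 (19%) a gene of conventional, migratory or plasmacytoid dendritic cells, such as Flt3, Xcr1 or Ccr7. The dendritic group had a median of 6545 UMIs and held 35.5% of the set's UMIs, and 5 barcodes carried Cd207 or at least 10 keratin or collagen UMIs. The remaining 123 barcodes (63.1%), called unmarked here, held none of these and 46.3% of the UMIs, with a median of 2401. They numbered 39 or more in each OVA-sensitized library and 4, 3 and 4 in the controls. Since 1 UMI of a basophil, NK, T cell or dendritic gene marks a barcode, deep barcodes are favoured. Of 35 barcodes with a conventional or migratory dendritic gene after OVA, 22 held at least 2 such UMIs. The part of depth in this split was not tested. Summed over all Ly6c2/Plac8 barcodes, 7 basophil markers reached 595 to 778 CPM after OVA (C1q-high 0 to 4.35 CPM), 10 NK markers 449 to 782 CPM (0 to 4.45) and 8 conventional dendritic markers 519.8 to 573 CPM (87 to 187). In the mean of the libraries, Gzmb made up most of the NK sum, and its UMIs lay mainly in basophil-marked barcodes. Cd209a, a marker also of monocyte-derived dendritic cells, made up most of the dendritic sum. Of the NK markers Ncr1, Klrb1c and Klra8 were at 0, as were Ly6g and Retnlg of the 9 neutrophil markers (39.1 to 109.8 CPM). Keratinocyte markers summed to 242 to 1924 CPM (C1q-high 383 to 7882) and fibroblast markers to 147 to 2067 CPM (583 to 4495). The comparison below was also fitted without C1q-high barcodes of at least 10 haemoglobin or keratin UMIs. It then called 353 genes higher and 358 lower of 3422, and kept 509 of the 523 main calls that could be tested. The part of fibroblast genes in the C1q-high barcodes was not tested. The comparison with C1q-high barcodes is given for the whole set and, for many genes, for the unmarked barcodes, a split chosen after the data were seen. The comparisons of treatments could not be fitted on them.

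The main comparison asks how the Ly6c2/Plac8 barcodes differ from the C1q-high barcodes of the same 3 OVA-sensitized libraries. It used edgeR's quasi-likelihood test on UMIs summed per class and library, with the library as a block and Benjamini-Hochberg adjustment over all genes. Values are CPM for libraries 1, 2 and 3, and a log2 difference is of Ly6c2/Plac8 over C1q-high barcodes ± SE. Of 3658 genes tested, 280 were higher (7.65%) and 256 lower (7%), 14.7% in all, and 1134 had an unadjusted p under 0.05. Counts of called genes per list below should be read against these shares. Among the unmarked barcodes 173 of 2763 genes were higher (6.26%) and 192 lower (6.95%), and 255 of the 456 calls that could be tested there were kept. The counts fell to 118 and 109 without OVA-sensitized library 1 (in all 7.07% of 3211 genes) and to 139 and 116 without library 3 (7.66% of 3328), with 2 libraries left in each. Both classes were cut by gates from these counts, so genes that go with C1q had to be lower in the set. Genes that go with Ly6c2 or Plac8 were favoured to be higher, since the reference held neither. The log2 values describe the 2 gates and not single cells. In sums of cells, fewer cells of a kind and less RNA per cell cannot be told apart.

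Genes induced by interferon were higher in the Ly6c2/Plac8 barcodes. Within the set the type I list went with the gate genes, at 3104 ± 1023 CPM with both, 1167 ± 397 CPM with Ly6c2 alone and 1274 ± 315 CPM with Plac8 alone. The gate's part in the differences below was not tested. Of the type I interferon list 5 of 11 tested genes were higher and 0 lower (median log2 1.10, against 0.00064 over all genes tested), and of the interferon-gamma list 7 of 11 and 0 (median 1.64). Irf7 (ENSMUSG00000025498, chromosome 7, 141262706 to 141266481, minus strand), the transcription factor that amplifies the type I interferon response, stood at 249.7, 339 and 192 CPM against 30.4, 39.2 and 75.7 CPM (log2 2.38 ± 0.37, adjusted p = 0.00855). Ly6e, an interferon-induced surface protein of the Ly6 family, stood at 143, 275 and 281 CPM against 34.8, 49.9 and 71.2 CPM (log2 2.11 ± 0.21, adjusted p = 0.00198). In both genes the lowest Ly6c2/Plac8 library lay above the highest C1q-high library.

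The long non-coding RNA gene AW112010, which interferon-gamma induces, stood at 404, 513 and 438 CPM against 60.9, 160.3 and 120.2 CPM (log2 1.99 ± 0.25, adjusted p = 0.00413). The proteasome subunit genes Psmb8 and Psmb9, which trim antigens for class I presentation, stood at 933, 718 and 672 CPM against 243, 189 and 294 CPM (log2 1.64 ± 0.21, adjusted p = 0.00461) and at 257, 252 and 211 CPM against 86.9, 103 and 116 CPM (log2 1.19 ± 0.22, adjusted p = 0.0149). Cxcl9, a chemokine for activated T cells, gave 46 UMIs in 11 Ly6c2/Plac8 barcodes and 2 in C1q-high barcodes, a ratio of 22.7 (exact 95% counting interval 5.92 to 193). Its fitted difference was log2 4.20 ± 0.81 (adjusted p = 0.0179). Gbp2 and Ifi47 were called as well. Ifi35 (log2 1.49 ± 0.33, adjusted p = 0.0275), the antiviral tether Bst2 (log2 0.86 ± 0.19, adjusted p = 0.0275) and the ubiquitin-like Isg15 (log2 1.10 ± 0.27, adjusted p = 0.038) passed with smaller margins.

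Most of these genes were also higher without the barcodes that carry other markers. Among the unmarked barcodes 8 of 10 type I genes were higher (median 1.57) and 8 of 10 interferon-gamma genes (median 1.88), with Zbp1, Rtp4, Ifi204, Fcgr4 and Tap1 added and Ifi47 no longer among the calls. Irf7 stood there at 172, 429.9 and 443 CPM (log2 2.77 ± 0.28, adjusted p = 3.9e-05) and Ly6e at 172, 374 and 669 CPM (log2 2.81 ± 0.27, adjusted p = 2.76e-05). AW112010 stood at 282, 836 and 723 CPM (log2 2.32 ± 0.22, adjusted p = 2.76e-05), its lowest library still above the C1q-high ones. Calls of single genes were less firm. In members with fewer than 5 C1q UMIs, AW112010 (log2 1.19, adjusted p = 0.0574), Isg15 (0.73, 0.104) and Ifi35 (1.12, 0.126) lost their calls, and over all 6 libraries Isg15 stood at 0.16 (0.83). Calls were also lost for Cxcl9 and Psmb9 without OVA-sensitized library 1 (0.0667 and 0.0859), Bst2 and Ifi35 without library 1 (0.127 and 0.131) or 2 (0.0628 and 0.0832), and Isg15 without library 2 (0.0853) or 3 (0.105).

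The promoters of 3 of these genes are shown because they hold the letters of the interferon-stimulated response element. Capitals mark 2 GAAA words set 2 bases apart, the core of that element, on either strand in the 150 bases before the RefSeq start (GRCm38.p6), and overlapping matches run together.
Isg15 (chr4:156200819-156200968, minus strand): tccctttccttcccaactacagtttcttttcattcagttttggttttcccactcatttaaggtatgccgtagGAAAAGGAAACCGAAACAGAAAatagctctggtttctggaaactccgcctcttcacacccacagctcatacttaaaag
Bst2 (chr8:71537473-71537622, minus strand): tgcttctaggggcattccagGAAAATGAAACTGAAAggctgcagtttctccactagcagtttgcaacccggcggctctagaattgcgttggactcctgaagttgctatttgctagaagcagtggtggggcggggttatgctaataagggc
Gbp2 (chr3:142620513-142620662, plus strand): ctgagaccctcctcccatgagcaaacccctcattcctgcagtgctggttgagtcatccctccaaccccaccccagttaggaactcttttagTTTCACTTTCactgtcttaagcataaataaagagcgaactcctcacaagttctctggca
Isg15 held 3 overlapping matches, the first beginning 78 bases before the start, Bst2 held 2 beginning with 1 at 130 bases, and Gbp2 held 1 at 59 bases, on the opposite strand. Of the 12 called interferon genes, 10 had a RefSeq promoter window of 300 bases and 3 of these held the motif, against 3.44% of all windows. A match shows only that these letters are present.

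Genes of antigen presentation by MHC class II were higher in the set. Of 12 tested, 8 were higher and 1, the protease gene Ctss, lower (median log2 1.14). H2-Aa, the alpha chain of I-A, stood at 16993, 13834 and 13585 CPM against 4895, 5715 and 6186 CPM (log2 1.36 ± 0.16, adjusted p = 0.00345). Its beta chain gene H2-Ab1 stood at 14731, 11418 and 12100 CPM against 4334, 5844 and 6008 CPM (log2 1.20 ± 0.19, adjusted p = 0.00855). The genes of the peptide-loading protein H2-M rose too, H2-DMb2 by log2 1.89 ± 0.22 (adjusted p = 0.00312), H2-DMb1 by 1.60 ± 0.22 (adjusted p = 0.0055) and H2-DMa by 1.02 ± 0.14 (adjusted p = 0.0055). The dendritic group, with 19% of the barcodes and 35.5% of all UMIs of the set, held 50.4% of the H2-Aa UMIs. Among the unmarked barcodes H2-Aa stood at 15844, 11210 and 7924 CPM (log2 0.94 ± 0.23, adjusted p = 0.0174), and 7 of 10 list genes were higher. The call of H2-DMb2 was lost when each barcode was thinned to 1000 UMIs (adjusted p = 0.326).

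Dendritic genes were higher in the whole set. Of 12 tested, 9 were higher and none lower (median log2 1.95). The unmarked barcodes were made by leaving out those with dendritic genes, so the fewer calls there, 2 of 7 genes still tested (Tnip3 and Napsa), follow in part from the split. Flt3, the growth factor receptor of dendritic cells and one of the genes that defined the split, gave 46 UMIs in 27 barcodes against 0 in C1q-high barcodes, at least 15.1-fold higher if the C1q-high group is set to 3 counts. Cd7 stood at 334, 137 and 172 CPM against 4.35, 0 and 4.45 CPM, with 73.3% of its UMIs in the dendritic group. The lectin gene Cd209a, a marker of dermal and monocyte-derived dendritic cells, stood at 297, 352 and 305 CPM against 60.9, 103 and 169 CPM (log2 1.53 ± 0.30, adjusted p = 0.0186), and the call was lost in the unmarked barcodes (log2 0.69 ± 0.43, adjusted p = 0.335) and without OVA-sensitized library 1 (0.0695). Cst3, a protease inhibitor abundant in dendritic cells, went from log2 0.84 ± 0.15 (adjusted p = 0.0139) to 0.22 ± 0.19 (0.514), and was also lost without library 1 (0.0539) or 3 (0.0875). Tnip3, an inhibitor of NF-kB signalling, stood at 573, 467 and 457 CPM against 86.9, 99.8 and 93.5 CPM and kept its value in the unmarked barcodes (log2 2.36 ± 0.20 and 2.27 ± 0.26, adjusted p = 0.00104 and 0.000112).

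**Figure D2:**
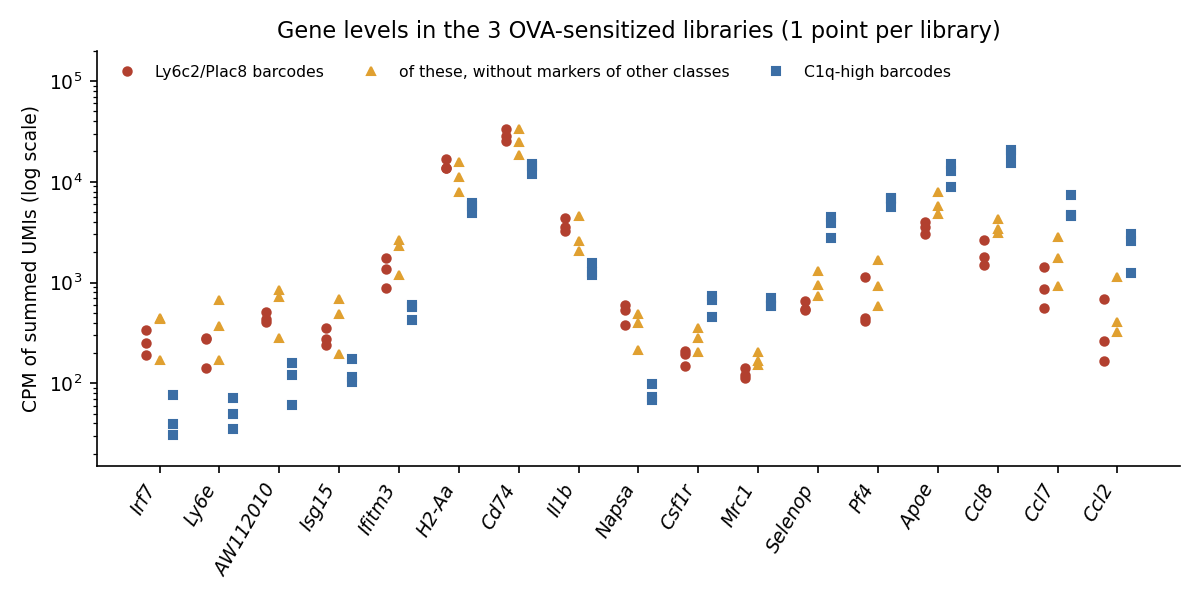
CPM (log scale) of 17 genes in the 3 OVA-sensitized libraries, for all Ly6c2/Plac8 barcodes (red circles), the unmarked ones among them (yellow triangles) and C1q-high barcodes (blue squares), 1 point per library. For Irf7, Ly6e and AW112010 both kinds of Ly6c2/Plac8 points lie above the blue ones; for Selenop, Pf4 and Ccl8 they lie below.

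Classical monocyte genes outside the gate did not move one way. Of 20 tested, 4 were higher, Napsa, Ifitm3 and Ifi27l2a among them, and 3 lower (F13a1, Csf1r and S100a6), with a median log2 of -0.0016. Ifitm3, an interferon-induced antiviral membrane protein also abundant in monocytes, stood at 892, 1739 and 1360 CPM against 422, 595 and 574 CPM (log2 1.25 ± 0.16, adjusted p = 0.00402) and at 1197, 2285 and 2656 CPM in the unmarked barcodes. Napsa, an aspartic protease, stood at 382, 595 and 532 CPM against 73.9, 67.7 and 97.9 CPM (log2 2.60 ± 0.22, adjusted p = 0.00104), with 52.4% of its UMIs in the dendritic group. Csf1r stood at 147, 197 and 207 CPM against 674, 453 and 729.8 CPM (log2 -1.78 ± 0.22, adjusted p = 0.00402), and F13a1, a transglutaminase of monocytes and macrophages, at 33.1, 36.6 and 31.3 CPM against 230.4, 178 and 227 CPM (log2 -2.69 ± 0.23, adjusted p = 0.00103). Both were lower in the unmarked barcodes too (log2 -1.21 ± 0.22 and -1.84 ± 0.28, adjusted p = 0.00341 and 0.000933). Within the set Csf1r went with C1q, at 116 ± 35.8 CPM at C1q 0 and 522 ± 173 CPM at 5 or more. A C1q-high reference thus favours its fall, and whether it favours that of F13a1 was not tested. Among the unmarked barcodes 5 of 19 list genes were higher, Samhd1 and Emilin2 among them, and 2 lower. Non-classical monocyte genes gave 3 tested members, of which Eno3 was higher, though not tested in the unmarked barcodes, and Nr4a1 lower.

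Among receptors for chemoattractants, Ccr7, which guides dendritic cells to lymph nodes, gave 41 UMIs in 8 barcodes; it is one of the genes that defined the dendritic group. The complement receptor gene C3ar1 (log2 -1.12 ± 0.18, adjusted p = 0.00964) and Cxcr4 (log2 -1.10 ± 0.19, adjusted p = 0.012) were lower, and both calls were lost in the unmarked barcodes (0.323 and 0.0642) and without OVA-sensitized library 1 (0.0565 and 0.0564), that of Cxcr4 also without library 3 (0.064). In all, 2 of 10 receptors were higher and 2 lower. Of 19 adhesion and extravasation genes 7 were higher and 2 lower (median log2 0.50). Coro1a, an actin regulator of leukocytes, stood at 1032, 897 and 938 CPM against 230.4, 214 and 254 CPM (log2 1.99 ± 0.16, adjusted p = 0.00101), Lsp1, another, at 848, 641 and 676 CPM against 65.2, 99.8 and 97.9 CPM (log2 2.98 ± 0.25, adjusted p = 0.00103), and Selplg, the ligand of P-selectin, at 220.3, 137 and 227 CPM against 34.8, 42.8 and 71.2 CPM (log2 1.91 ± 0.26, adjusted p = 0.0055). Each of the 3 kept its call in the unmarked barcodes (log2 1.53, 1.78 and 1.26), and Selplg lost it after thinning (0.102). Cd63, a tetraspanin of late endosomes, was lower (log2 -1.88 ± 0.24, adjusted p = 0.00428).

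Genes of resident dermal macrophages were lower, as the choice of a C1q-high reference favours, and are given as a description. Of 23 tested 20 were lower and none higher (median log2 -2.50), and 18 of 22 in the unmarked barcodes (median -1.72). Selenop, a secreted selenium carrier, stood at 551, 531 and 649 CPM against 3913, 2797 and 4446 CPM (log2 -2.71 ± 0.15), the chemokine Pf4 at 441, 412 and 1141 CPM against 6973, 5587 and 6688 CPM (log2 -3.46 ± 0.28) and the mannose receptor gene Mrc1 at 121, 142 and 113 CPM against 604, 584 and 703 CPM (log2 -2.37 ± 0.20). Cbr2, a carbonyl reductase (log2 -4.29 ± 0.24), the folate receptor gene Folr2 (-3.74 ± 0.36), Gas6, a bridge to dying cells (-3.52 ± 0.23), and Timp2, a protease inhibitor (-2.61 ± 0.17), followed. Adgre1, which encodes F4/80, was not called in the unmarked barcodes (log2 -0.65 ± 0.29, adjusted p = 0.177), and its call in the whole set was lost without OVA-sensitized library 1 (0.133) or 3 (0.0981). Maf was lower in the whole set and in the unmarked barcodes (log2 -2.52 ± 0.25 and -1.69 ± 0.30).

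Lipid handling and phagocytic genes were lower in 7 of 17 cases and higher in 2 (median log2 -0.97). Apoe and Trem2 are also on the dermal macrophage list, whose fall the C1q-high reference favours, and are given as a description. How far the reference favours the rest of this list was not tested. Apoe, which carries lipids between cells, stood at 3015, 3560.3 and 4025 CPM against 15099, 8794 and 12701 CPM (log2 -1.81 ± 0.19). Trem2, a lipid-sensing receptor, stood at 69.8, 73.2 and 62.5 CPM against 543, 310.0 and 494 CPM (log2 -2.73 ± 0.24). The cholesterol exporter gene Abca1 stood at 40.4, 59.5 and 78.2 CPM against 226, 217 and 236 CPM (log2 -1.99 ± 0.23, adjusted p = 0.00295). The lysosomal protease gene Ctsl was lower (log2 -2.59 ± 0.33 adjusted p = 0.00428). Spp1 and Timd4 were the 2 higher, and of these Spp1 in the unmarked barcodes too. Of 14 genes of alternative activation, the macrophage state linked to IL-4, 5 were lower and 1, the lectin gene Mgl2, higher. A single higher gene is near the 7.65% over all genes tested, and Mgl2 was not among the calls in the unmarked barcodes. Ccl24, a chemokine for eosinophils, stood at 198, 105 and 137 CPM against 487, 378 and 592 CPM (log2 -1.78 ± 0.23, adjusted p = 0.00421; -0.78, 0.0338 in the unmarked barcodes), Rnase2a was lower (log2 -2.62 ± 0.34, adjusted p = 0.00463), and Fcgr2b, the inhibitory Fc receptor (log2 -1.03 ± 0.23, adjusted p = 0.0309), lost its call without OVA-sensitized library 1 (0.124) or 3 (0.143) and in the unmarked barcodes (0.0589). Arginase Arg1 gave 67 UMIs in 13 barcodes, with 67 of the UMIs in unmarked barcodes and 26 in 1 barcode. Its values were 55.1, 50.3 and 160.2 CPM against 65.2, 53.4 and 49 CPM in the whole set (log2 0.50 ± 0.41, adjusted p = 0.454), and in the unmarked barcodes the call passed (log2 1.66 ± 0.42, adjusted p = 0.0194). Retnla gave 2 UMIs in the set.

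**Figure D3:**
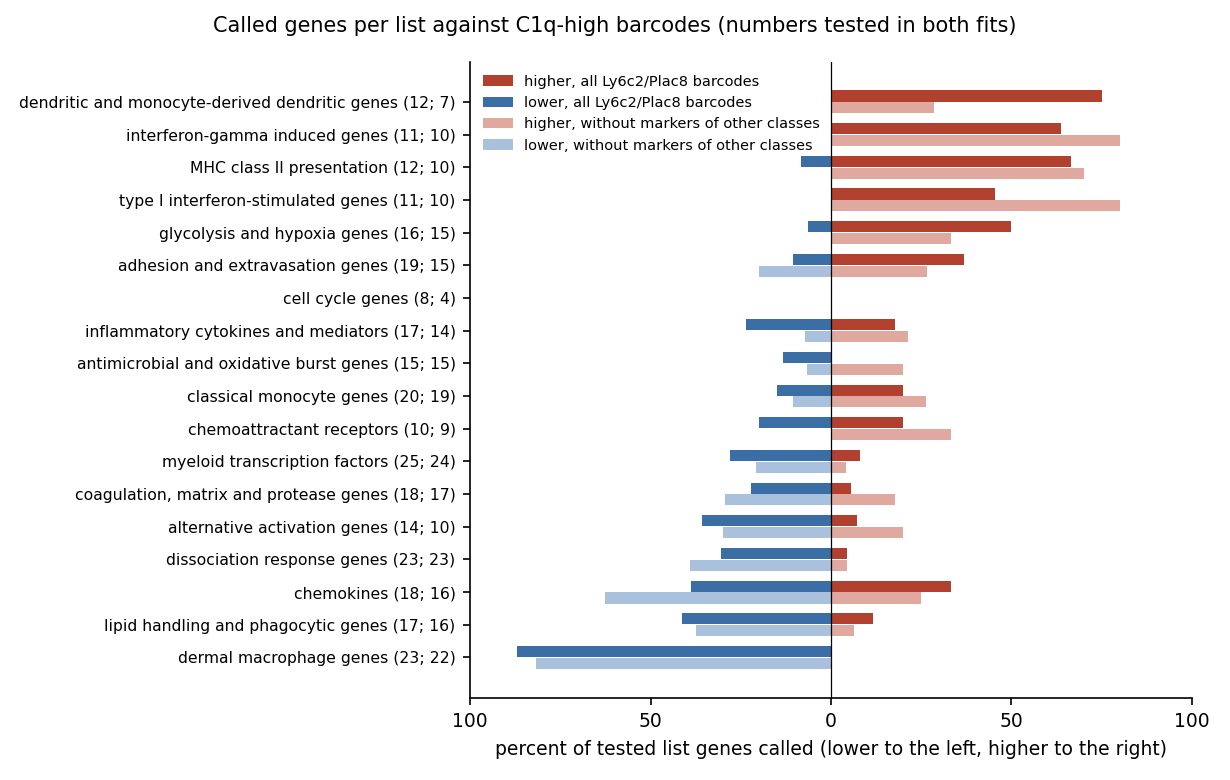
Share of the tested genes of each list that were higher (right, red) or lower (left, blue) in Ly6c2/Plac8 than in C1q-high barcodes of the OVA-sensitized libraries, for the whole set (dark) and the unmarked barcodes (pale), with the numbers tested in both. All called genes of the 2 interferon lists were higher, all called genes of the dermal macrophage list were lower. The unmarked barcodes were chosen to lack dendritic genes.

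Chemokines were called in both directions. Ccl8, Ccl7 and Ccl2, which lie together on chromosome 11 and recruit monocytes and other leukocytes, were lower: Ccl8 (ENSMUSG00000009185, chromosome 11, 82115185 to 82116799, plus strand) stood at 1476, 2654 and 1806 CPM against 15347, 19540 and 20867 CPM (log2 -3.31 ± 0.16, adjusted p = 0.000543), Ccl7 at 870.4, 563 and 1411 CPM against 4613, 4643 and 7463 CPM (log2 -2.65 ± 0.17, adjusted p = 0.000648) and Ccl2 at 165, 261 and 688 CPM against 2591, 1258 and 3004 CPM (log2 -2.79 ± 0.35, adjusted p = 0.00402). Reads shared between these paralogs were not resolved. Cxcl1, which attracts neutrophils, was lower (log2 -1.92 ± 0.22, adjusted p = 0.00298). In the unmarked barcodes these 4 were lower too (log2 -2.44, -1.77, -2.04 and -2.02). Within the set Ccl8 went with C1q, at 74.4 ± 29 CPM at C1q 0 and 9649 ± 2464 CPM at 5 or more. The choice of a C1q-high reference thus favours its fall. How far that choice favours the other falls in this list was not tested. Ccl3 and Ccl4, chemokine paralogs, were higher in the whole set: Ccl3 stood at 899.8, 1487 and 1086 CPM against 313, 99.8 and 436 CPM (log2 2.10 ± 0.48, adjusted p = 0.0307) and Ccl4 at 1722, 1405 and 1289.7 CPM against 465, 641 and 939 CPM (log2 1.11 ± 0.28, adjusted p = 0.0414). The 20 basophil-marked barcodes held 816 of the 848 Ccl3 UMIs (96.2%) and 899 of the 1106 Ccl4 UMIs (81.3%), and in the unmarked barcodes both were lower (log2 -2.11 ± 0.59 and -0.95 ± 0.25, adjusted p = 0.0324 and 0.024). The call of both was lost without OVA-sensitized library 1 (0.0591 and 0.126), and that of Ccl4 without library 2 (0.0766). Ccl5, Ccl6, Ccl9 and Cxcl9 were higher in both. In all, 6 of 18 chemokines were higher and 7 lower in the whole set, and 4 and 10 of 16 in the unmarked barcodes.

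Inflammatory cytokines gave 3 higher and 4 lower of 17. Il1b (ENSMUSG00000027398, chromosome 2, 129364570 to 129371139, minus strand), the inflammasome cytokine of myeloid cells, stood at 4341, 3263 and 3592 CPM against 1187, 1578 and 1286 CPM (log2 1.42 ± 0.18, adjusted p = 0.00428) and at 4601, 2564 and 2040.4 CPM in the unmarked barcodes (log2 1.04 ± 0.25, adjusted p = 0.0145). Osm and Tgfb1 were also higher; Osm was not among the calls in the unmarked barcodes. Tnf was lower (log2 -1.89 ± 0.23, adjusted p = 0.00391), though not called in the unmarked barcodes (adjusted p = 0.0625). Il1rn, the antagonist of the IL-1 receptor, was lower (log2 -0.67 ± 0.16, adjusted p = 0.0341), a call lost without OVA-sensitized library 1 (0.113) or 3 (0.167) and in the unmarked barcodes (log2 0.08, adjusted p = 0.836). Ltc4s, the leukotriene C4 synthase gene, gave 3 UMIs against 53 in C1q-high barcodes. Of the antimicrobial and oxidative burst genes, Lyz1, a paralog of the gate gene Lyz2, and Cyba were lower and none of 15 higher; in the unmarked barcodes Cd14, Fcgr1 and Fcgr4 were higher and Lyz1 lower, and Cyba was not called (adjusted p = 0.398). The Lyz1 call was lost without OVA-sensitized library 3 (0.0538), and that of Cyba without library 1 (0.0938) or 3 (0.148).

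Genes of glycolysis and hypoxia were higher in 8 of 16 cases and lower in 1 (median log2 0.93). Gapdh stood at 1160.5, 1368 and 1372 CPM against 526, 456 and 320.4 CPM (log2 1.56 ± 0.20, adjusted p = 0.00428) and the lactate exporter gene Slc16a3 at 80.8, 119 and 86 CPM against 26.1, 32.1 and 13.3 CPM (log2 1.94 ± 0.34, adjusted p = 0.0121). In the unmarked barcodes 5 of 15 were higher (Gapdh log2 1.33, Slc16a3 2.08). Pfkp was not among them (2.05 in the whole set, 0.91 there, adjusted p = 0.00232 and 0.185). The stress gene Ndrg1 was lower in the whole set (log2 -1.33 ± 0.22, adjusted p = 0.0101), and its call was lost in the unmarked barcodes (0.0819) and without OVA-sensitized library 1 (0.0564). Genes raised by tissue dissociation were lower in 7 of 23 cases and higher in 1 (median log2 -0.49, and -0.67 in the unmarked barcodes). Fosb, an early response factor, stood at 55.1, 59.5 and 54.7 CPM against 287, 321 and 338 CPM (log2 -2.51 ± 0.20, adjusted p = 0.000997), and Egr1 (log2 -1.97 ± 0.21) and Nr4a1 (-1.63 ± 0.24) were lower with adjusted p of 0.00224 and 0.0064. Atf3 (log2 -1.93 ± 0.31, adjusted p = 0.00961) lost its call without OVA-sensitized library 3 (0.0527). Handling of the tissue is known to raise such genes, and their part in the other differences was not tested.

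Of 25 myeloid transcription factors 2 were higher, near the 7.65% of all genes tested, and 7 lower, against 7% of all genes. Irf8, needed for dendritic cells and monocytes, stood at 353, 302 and 277 CPM against 91.3, 71.3 and 97.9 CPM (log2 1.79 ± 0.21, adjusted p = 0.00321), with 62.7% of its UMIs in the dendritic group, and was not called in the unmarked barcodes (log2 0.71 ± 0.34, adjusted p = 0.201). Of 18 coagulation, matrix and protease genes 4 were lower and 1, Adam8, higher, the latter again near the share over all genes. The serpin gene Serpinb6a was lower (log2 -3.40 ± 0.23, adjusted p = 0.000648), the plasminogen activator gene Plau likewise (log2 -2.45 ± 0.28, adjusted p = 0.00295), and so was Ecm1 (log2 -2.30 ± 0.21, adjusted p = 0.00111), all 3 in the unmarked barcodes too. No cell cycle gene of 8 tested was called (median log2 0.33).

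Genes known from other cell types were among the largest rises of the comparison. Mcpt8, Hdc, Gata2 and Nkg7 helped to define the marked barcodes, so where their own UMIs lie is no finding. Mcpt8, a basophil protease, gave 162 UMIs in 14 barcodes against 0 in C1q-high barcodes, at least 53.2-fold higher against 3 counts. The granzyme gene Gzmb gave 320 UMIs in 13 barcodes (307 in basophil-marked and 13 in NK- or T-marked ones) and 1 in C1q-high barcodes. Il13, a cytokine of type 2 immunity, gave 43 UMIs in 5 barcodes, and the steroid enzyme gene Cyp11a1 59 in 12, all of them basophil-marked. The receptor gene Klrk1 gave 54 UMIs, of which 31 lay in the dendritic group and 12 in unmarked barcodes. Ifitm1 stood at 184, 682 and 633 CPM against 4.35, 7.13 and 26.7 CPM, with 67.3% of its UMIs basophil-marked, and was still higher in the unmarked barcodes (log2 2.77 ± 0.69, adjusted p = 0.0188). Among the largest falls, Fxyd2, a regulator of the sodium pump, stood at 7.35, 22.9 and 31.3 CPM against 430.4, 356 and 534 CPM (log2 -4.49 ± 0.33, adjusted p = 0.000824), and the lipid mediator enzyme gene Enpp2 gave 0 UMIs against 51, at least 17.3-fold lower. Ctsk, Cd209b and Hpgds were also lower. Hba-a1, Cd207 and Mucl1 rested on few C1q-high barcodes (8, 10 and 4 with a UMI).

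Within the Ly6c2/Plac8 barcodes of the OVA-sensitized libraries, complement C1q ran from 0 to 104 UMIs per barcode. It was 0 in 141 barcodes, 1 to 4 in 19 and 5 or more in 35, with median depths of 2665, 1820 and 2574 UMIs. Of the 35 with 5 or more, 29 were unmarked, as were 18 of the 19 and 76 of the 141. These are ranges of 1 measure, not types, and are described as mean ± SD of the 3 libraries. Ly6c2, which the gate used, stood at 500.1 ± 302 CPM with 5 or more C1q UMIs and 803 ± 259 CPM at C1q 0. Ccr2 stood at 225 ± 68.4 and 227 ± 34.9 CPM, values that overlap. The dermal macrophage list without C1q summed to 5080.4 ± 952, 12747 ± 2862 and 23289 ± 4884 CPM over the 3 ranges. Selenop went from 251 ± 69.6 to 1929 ± 441 CPM, Pf4 from 88.1 ± 58.1 to 3374 ± 2852 and Apoe from 2016 ± 606 to 10620 ± 1575.

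Ccl8 was low in barcodes without C1q. It stood at 82.5, 42.2 and 98.4 CPM in the libraries at C1q 0, 7341, 8832 and 0 CPM at 1 to 4 and 6931, 11736 and 10280 CPM at 5 or more. Interferon-gamma list genes summed to 1794 ± 419.8 CPM at C1q 0 and 4332 ± 1042 CPM at 5 or more, and AW112010 to 267 ± 75.7 and 1425 ± 577 CPM. The Fc receptor gene Fcgr4 went from 22.2 ± 20.9 to 212 ± 21.4 CPM. The dendritic list ran the other way, from 11947 ± 2973 to 3304 ± 462 CPM, with Cd209a at 388 ± 32.5 CPM and at 0 in each library in the highest range, where 3 counts would be the floor. MHC class II genes summed to 73458 ± 10084, 43482 ± 7139.6 and 61419 ± 6179 CPM over the 3 ranges. The dendritic and basophil genes of the C1q 0 range stand beside its 65 marked barcodes, and their part in these values was not tested.

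**Figure D4:**
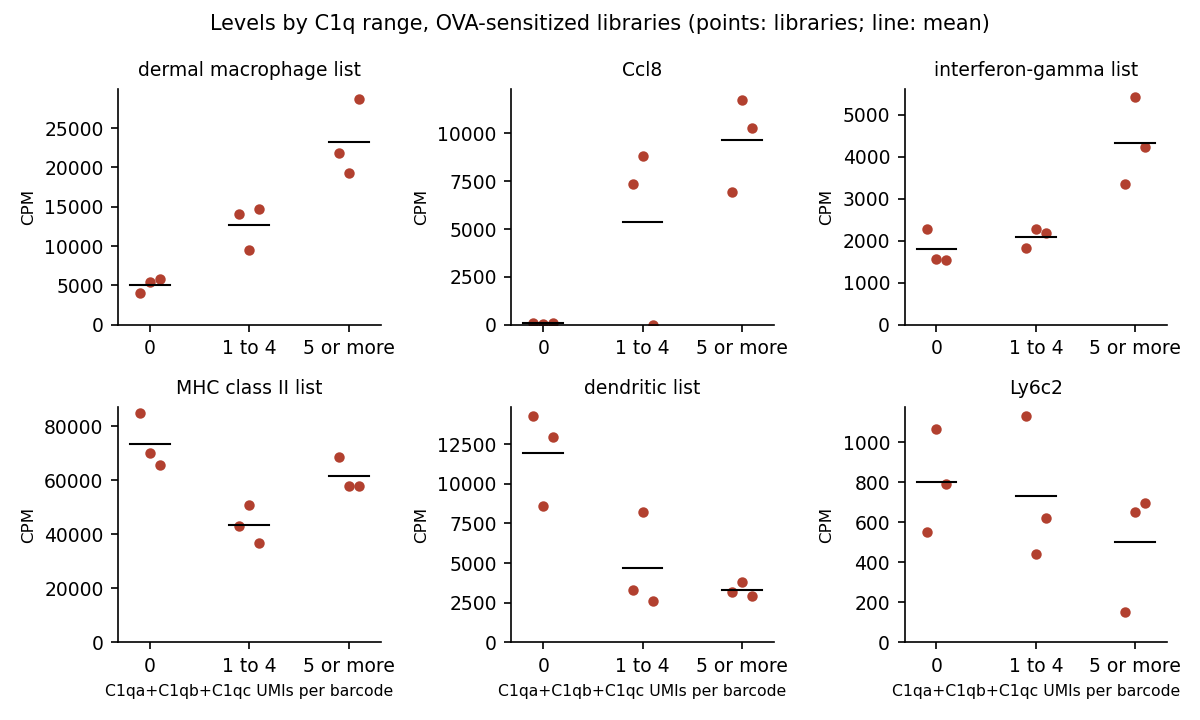
CPM in Ly6c2/Plac8 barcodes of the OVA-sensitized libraries with 0, 1 to 4 or at least 5 C1q UMIs, for list sums and single genes (points are libraries, lines their means). Macrophage genes and Ccl8 are highest in the range of 5 or more, dendritic genes at 0, and the points of Ly6c2, a gate gene, overlap.

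Levels also varied with the gate genes a barcode held, and are described as mean ± SD of the 3 libraries. Type I interferon genes summed to 3104 ± 1023 CPM with both, 1167 ± 397 CPM with Ly6c2 alone and 1274 ± 315 CPM with Plac8 alone. Ly6e stood at 506 ± 276 CPM with both, 178 ± 83.7 CPM with Ly6c2 alone and 61.6 ± 18.2 CPM with Plac8 alone. Ccr2 stood at 326 ± 37.1 CPM with both, 326 ± 148 CPM with Ly6c2 alone and 133 ± 32.7 CPM with Plac8 alone, and Cd14, the co-receptor for bacterial lipopolysaccharide, at 1899 ± 455 CPM with both, 1414 ± 478 CPM with Ly6c2 alone and 743 ± 193 CPM with Plac8 alone. For type I genes the barcodes with Ly6c2 alone thus lay near those with Plac8 alone, and for Ccr2 near those with both. The dendritic list summed to 8210.1 ± 1749.7 CPM with both, 8063 ± 1512 CPM with Ly6c2 alone and 12455 ± 2716 CPM with Plac8 alone.

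The comparison of treatments asks whether the few Ly6c2/Plac8 barcodes of control skin differ from those after OVA. As a description, at least 5 C1q UMIs were held by 11.1 ± 9.62% of the barcodes in the controls and 18.1 ± 6.8% after OVA, and both gate genes by 25 ± 8.33% and 39 ± 4.89%. At least 20 MHC class II UMIs were held by 63.9 ± 12.7% and 69.7 ± 1.31% (two-sided exact permutation over libraries, p = 0.7, adjusted over the 4 shares computed 0.933). At least 2 NK marker UMIs were held by 5.56 ± 9.62% and 3.58 ± 0.782% (exact permutation p = 1, adjusted 1). The smallest p this design allows is 0.1. With 6 to 8 barcodes in a control library, a difference in the last 2 shares was not detectable at this depth.

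Of 1746 genes tested by edgeR's quasi-likelihood test between treatments within the set, 4 were higher after OVA (0.229%) and 0 lower (0%), with 126 at an unadjusted p under 0.05. DESeq2 called 8 and 3 of 12603. Ccl8 stood at 0, 81.7 and 0 CPM in control libraries 1 to 3 and 1476, 2654 and 1806 CPM after OVA (log2 6.13 ± 0.63, adjusted p = 0.000175). The control values rest on 2 UMIs, which give a ratio of 71.3 (exact 95% counting interval 19.7 to 589). Ccl4 stood at 0, 40.8 and 94.1 CPM and 1722, 1405 and 1289.7 CPM (log2 5.13 ± 0.52, adjusted p = 0.000175), Ccl3 at 0, 163 and 141 and 899.8, 1487 and 1086 CPM (log2 3.58 ± 0.54, adjusted p = 0.00873), and Gzmb at 0 in each control library and 419, 595 and 297 CPM (adjusted p = 0.0166), at least 10.5-fold higher against 3 counts over the controls. In each of the 4 the OVA-sensitized libraries lay above the controls.

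Of the 4, Ccl8 alone was called without barcodes that hold NK markers or the basophil genes Mcpt8, Ms4a2 or Cpa3 (log2 6.21, adjusted p = 0.000138). Ccl4 was then at 2.94 (0.243), Ccl3 at -0.02 (0.996) and Gzmb was not tested. Barcodes marked by Hdc or Gata2 alone stayed in that fit, which held 8, 6 and 5 control barcodes. The Ccl8 UMIs lay with C1q: of 1444 after OVA, 45 were in the 141 barcodes without C1q, 296 in the 19 with 1 to 4 C1q UMIs and 1103 in the 35 with 5 or more, and 17 of the 20 control barcodes had no C1q. In members with fewer than 5 C1q UMIs Ccl8 could not be tested between treatments. The Ccl3 call was also lost without OVA-sensitized library 2 (adjusted p = 0.139), and Gzmb could not be tested without OVA-sensitized library 1 or 2. In the controls 3 of 20 barcodes held a basophil gene, in each case Hdc, and 1 of them held at least 2 UMIs. Mcpt8, Ms4a2, Cpa3 and Gata2 gave no UMI there. Most genes of the set gave no call: Ly6e went from 0, 81.7 and 282 to 143, 275 and 281 CPM, Irf7 from 0, 0 and 329 to 249.7, 339 and 192 CPM, H2-Aa from 18675, 19763 and 8234 to 16993, 13834 and 13585 CPM and Il1b from 4785, 12985 and 6352 to 4341, 3263 and 3592 CPM (adjusted p = 0.827, 0.718, 0.983 and 0.289). In the first 3 the treatments overlap, and the Il1b value of each control library lay above those after OVA. Medians over the lists were 1.06 for 5 type I interferon genes and -0.08 for 10 MHC class II genes, against 0.01 over all genes tested.

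The last comparison asks whether the difference between treatments was another in Ly6c2/Plac8 than in C1q-high barcodes of the same libraries. The interaction term of edgeR's quasi-likelihood fit passed for 6 of 4405 genes (0.136%), each more positive in the Ly6c2/Plac8 barcodes, with 371 at an unadjusted p under 0.05 and a median of 0.40 over all genes, against which single values should be read. Ccl4 went from 1585, 1725 and 2594 to 465, 641 and 939 CPM in C1q-high barcodes, the opposite way to the Ly6c2/Plac8 barcodes (interaction log2 7.002 ± 0.59, adjusted p = 6.46e-08). Ccl8 was higher after OVA in both classes, going from 3537, 5212 and 5628 to 15347, 19540 and 20867 CPM in C1q-high barcodes (interaction 4.45 ± 0.64, adjusted p = 0.000612). Isg15 went from 272, 422 and 252 to 174, 103 and 116 CPM in C1q-high barcodes and from 143, 0 and 94.1 to 239, 352 and 274 CPM in the set (interaction 3.35 ± 0.65, adjusted p = 0.0233). Ccl3 (4.88 ± 0.71, adjusted p = 0.000612), Gzmb (12.45 ± 1.87, 0.00117) and Rgs1, a brake on chemokine receptor signalling (3.84 ± 0.80, 0.0486), completed the 6. Basophil-marked barcodes held 72.3% of the Rgs1 UMIs in the set. Of the 6, Ccl4 kept its call without each of the 6 libraries in turn; without control library 1 it was the one called (adjusted p = 0.00105), and Isg15 and Rgs1 were not called without any one of the control libraries (adjusted p 0.137 to 0.336), nor Rgs1 without OVA-sensitized library 1 (0.199). The calls of Ccl8, Ccl3 and Gzmb were lost without control library 1 (0.0715, 0.231 and 0.0637), and those of Ccl3 and Gzmb without control library 3 (0.0505 and 1). That of Ccl8 was also lost in members with fewer than 5 C1q UMIs (log2 7.41, adjusted p = 0.21). With DESeq2, Ccl8 (0.946), Isg15, Rgs1 and Gzmb (0.999 each) were not called. Without OVA-sensitized library 2 the interaction called 49 genes as more positive and 4 as more negative.

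**Figure D5:**
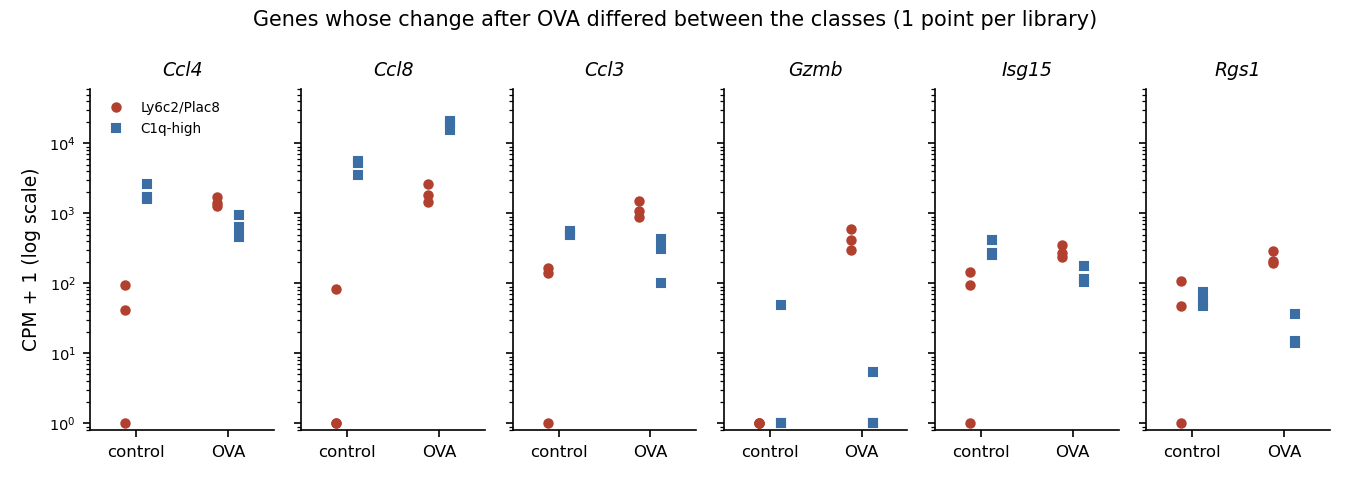
CPM + 1 (log scale) of the 6 genes called in the interaction test, in Ly6c2/Plac8 (red circles) and C1q-high barcodes (blue squares) of control and OVA-sensitized libraries, 1 point per library, with points at 1 for libraries without a UMI. The red points of Ccl4 lie at most at 94.1 CPM in the controls and at least at 1289.7 CPM after OVA, while the blue ones are lower after OVA.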

How the data were processed

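The authors deposited 1 matrix of UMI counts per library, made with Cell Ranger (3.1.0, per the file headers) and STAR on mm10, per the submitters' processing notes; the sources used here give no filter beyond the cell call. Coordinates come from GENCODE M21, matched by ID for 32158 of 32285 genes. The members, the gene lists and the tests were chosen with earlier results of these data known.

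Deposited counts were summed per class and library and tested with edgeR 4.0.16 (R 4.3.3; TMM, filterByExpr, quasi-likelihood test, adjusted p under 0.05). Members were compared with C1q-high barcodes in the 3 OVA-sensitized libraries with the library as a block, treatments within members over 6 libraries, and the difference between classes over 12 sums with the library as a block. SE is the log2 difference over the square root of F. Shares used exact permutation (scipy 1.17.1). The script was tested on simulated counts. Genes of both gates and Ms4a4c, Thbs1 and Ccr2 were left out of counts of calls. Fold bounds use a floor of 3 counts over a group. Intervals and floors cover counting error only.

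Genes named are the 12 largest rises and falls per comparison with a mean of at least 50 CPM and 1 direction in every library, up to 4 called members of each list with the smallest p, and fixed genes; others in lists were named after their values were seen, and some genes the rule names are not reported here. Alternatives were DESeq2 1.42.0, no filter, other gates, thinning to 1000 UMIs, other libraries and blocks. The alternative without NK or basophil markers left out barcodes with Ncr1, Klrb1c, Klre1, Nkg7, Gzma, Prf1, Mcpt8, Ms4a2 or Cpa3. It kept those with Hdc or Gata2 alone. The sets without markers of other classes, with Ly6c2 required, and the reference without haemoglobin or keratin were added after seeing the data. Scrublet (scanpy 1.11.5) called under 0.5% of barcodes, so its own calls were not used, and the highest scores were left out as an alternative. List genes Mx1, Clec7a and Aldoa were not matched by symbol. Reads shared by paralogs were not resolved. Depth per library is given with the results.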

Additional observations from a re-analysis of the deposited data

Results flagged for a closer look

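For 6 genes the difference between treatments was larger in Ly6c2/Plac8 than in C1q-high barcodes by edgeR's interaction test, read against a median of 0.40 over all genes. The difference of log2 changes was 7.002 for Ccl4 (adjusted p = 6.46e-08). It was 4.45 for Ccl8 (adjusted p = 0.000612) and 4.88 for Ccl3 (adjusted p = 0.000612). For Gzmb it was 12.45 (adjusted p = 0.00117), a fitted value that depends on the prior count because the control Ly6c2/Plac8 barcodes held no UMI. Isg15 gave 3.35 (adjusted p = 0.0233) and Rgs1 3.84 (adjusted p = 0.0486). The 3 control sums hold 6 to 8 barcodes each. Without barcodes holding NK or basophil markers, Ccl3 gave 1.22 (adjusted p = 0.794), Rgs1 1.99 (adjusted p = 0.625) and Ccl4 4.74 (adjusted p = 0.000526), and Gzmb could not be tested. Without the highest doublet scores Rgs1 gave 2.79 (adjusted p = 0.267).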

How the results depend on the processing

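Between Ly6c2/Plac8 and C1q-high barcodes, 280 genes were higher and 256 lower; DESeq2 called 124 and 94, no filter on low counts 483 and 433, thinning 164 and 162, all 6 libraries 320 and 485, the unmarked barcodes 173 and 192, and leaving out 1 library 118 to 211 and 109 to 226. No replicate block gave 297 and 303 there. The numbers of genes tested differed between these settings. In all, 14.7% of 3658 genes were called in the main fit, 1.57% of 13906 with DESeq2 and 6.59% of 13906 with no filter. Thinning called 26.1% of 1248, all 6 libraries 18.3% of 4405, the unmarked barcodes 13.2% of 2763 and no replicate block 18.9% of 3175. Leaving out 1 library called 7.07 to 13.2%. Between treatments, 4 and 0 became 8 and 3 with DESeq2, 45 and 6 without a filter, 1 and 0 without NK or basophil markers, and 2 to 6 and 0 to 2 leaving out 1 library. As shares of the genes tested these were 0.229, 0.0873, 0.405 and 0.062%, and 0.1215 to 0.889% leaving out 1 library. Same-numbered libraries did not deviate together (r = 0.0914, -0.0773 and -0.01), and the replicate block gave 3 and 0, with Gzmb at an adjusted p of 0.0681. The interaction's 6 and 0 became 2 and 1 with DESeq2, 46 and 1 without a filter, 17 and 1 with C1q under 5, 3 and 0 without NK or basophil markers, and 1 to 49 and 0 to 4 leaving out 1 library. As shares of the genes tested these were 0.136, 0.02035, 0.319, 0.393 and 0.0706%, and 0.0237 to 1.23% leaving out 1 library. DESeq2 moved the median of all genes to -0.34 between treatments and -0.74 in the interaction.

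Directions turned for 4 named genes. Against C1q-high barcodes Arg1 ran from -0.16 without OVA-sensitized library 3 to 0.83 without library 1 and was -0.30 with C1q under 5, Ccl3 -1.505 without NK or basophil markers and -2.11 in the unmarked barcodes, Ccl4 -1.10, -0.95 and, over all 6 libraries, -0.82, and Il1rn 0.0775 in the unmarked barcodes. Between treatments Ccl3 was -0.0219 without NK or basophil markers. The other values of named genes against C1q-high barcodes kept direction and call in 1333 cases, lost the call in 72 and gained it in 1. DESeq2 lost Adgre1, Bst2, C3ar1, Ccl3, Ccr7, Cxcr4, Fcgr2b, Ifi35, Il1rn, Isg15, Ndrg1, Psmb9, Slc16a3 and Tnf (adjusted p 0.0679 to 0.984). The mean share of kept barcodes in controls and after OVA was 0.076 and 1.175% with 2 gate UMIs, 0.1245 and 1.39% with C1q under 5, 0.0774 and 1.07% unmarked, and 0.0836 and 0.923% with Ly6c2, and 1.53% after OVA without NK or basophil markers. The difference in the share with 5 C1q UMIs ran from 1.42 to 10.05 percentage points leaving out 1 library. The cause of these changes was not tested. Treatments could not be fitted with 2 gate UMIs, Ly6c2 required or unmarked barcodes, since a control library then held under 5.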
